A study of Anas platyrhynchos with 6 samples.

Results

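In liver of laying ducks, 53 annotated genes of moderate abundance stood clearly lower in birds kept in high ammonia than in birds kept in low ammonia. Abundance was measured by RNA sequencing as FPKM, the count in a gene per kilobase of its exons and relative to the counts of the library, so that levels can be compared between genes of different length. A gene was a member if it carried an Ensembl duck identifier, averaged from 10 to under 1000 FPKM over the 6 libraries, and had a lowest low ammonia library at least 1.5 times its highest high ammonia library. This last ratio is called the gap here. Of 23440 genes in the table, 16450 were annotated and 4962 of those had the required level, so the members made up 1.07% of the genes that could have qualified. The members were chosen by the FPKM values of the same 6 libraries, so their lower level in high ammonia is the selection itself and is given as a description. A fit over all genes is set beside it at the end for reference only.

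Ammonia is a toxic gas released from droppings in closed poultry houses. Birds dispose of surplus nitrogen mainly as uric acid, which the liver makes, and the liver of a laying bird also makes the lipids and the precursor proteins of egg yolk. Many of its abundant transcripts therefore encode secreted proteins and metabolic enzymes, and their level depends on feeding, laying and inflammation.

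The birds were Shanma laying ducks (Anas platyrhynchos, variety domestica). They numbered 176, were picked at an age of 150 days and were kept at 5 ± 5 ppm ammonia (low) or 75 ± 5 ppm (high) for 30 days, between days 200 and 230 of age, with diet and water shared by both groups. Each group had a room of its own, so the effects of room and of ammonia cannot be told apart. Liver RNA of 3 low and 3 high ammonia samples was sequenced, with 13415827 to 23584934 counts per library. Nothing in the labels says that the libraries of a group came from separate birds, so the spread between them may be partly technical.

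The identity of the members is limited to identifiers. The files do not pair the Ensembl identifiers with names. In the reference gene table, 0 of 26024 genes carry an Ensembl identifier, so the 53 could not be matched. No symbol, protein or function can therefore be given. The liver label could not be checked against marker genes for the same reason. Most genes are therefore called by their exon length, which was recovered from the FPKM values together with the counts. It is the length used in the FPKM, which in newly assembled genes was nearly always the mean exon length of the transcripts. In a whole-liver sample, fewer cells of a type and less RNA per cell cannot be told apart.

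Most members stood at 2 or more times their high ammonia level in low ammonia. The ratio of low to high ammonia means had a median of 2.56 over the 53 genes, with quartiles of 2.12 and 3.64 and a range from 1.62 to 29.3. It was at least 2 in 41 genes, at least 3 in 16 and at least 5 in 7. On the log2(FPKM + 1) scale the median difference of high minus low ammonia was -1.28 among the members, against -0.08 over all 4962 annotated genes of this level and -0.13 over all 11717 genes tested. The gap had a median of 1.78, reached 2 in 17 genes and 3 in 5. Median-ratio scaling of the libraries shifted the median difference of the tested genes by 0.126 on the log2 scale. After it the gap stayed at 1.5 or more in 37 of the 53 genes.

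**Figure D1:**
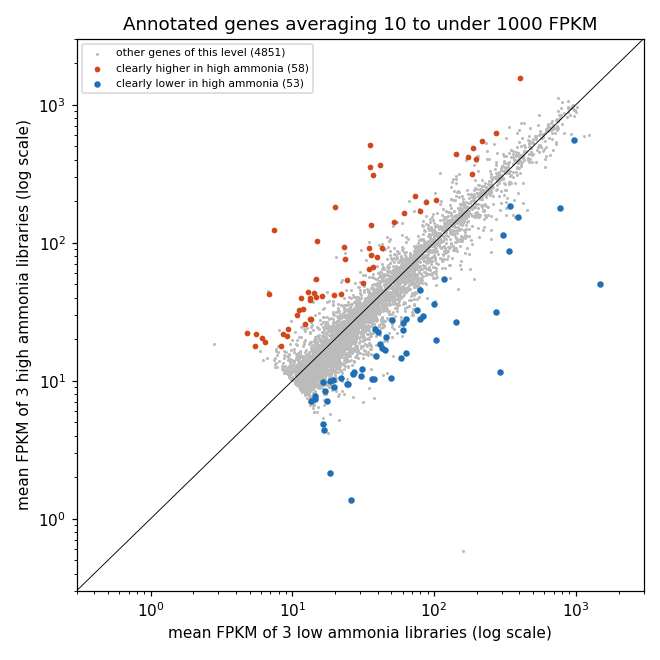
Mean FPKM in 3 low ammonia libraries (x axis, log scale) against mean FPKM in 3 high ammonia libraries (y axis, log scale) for 4962 annotated genes averaging 10 to under 1000 FPKM, with the line of equal means. The 53 members (blue) lie below the line and the 58 genes that met the mirrored rule (red) above it; 1 grey gene in the lower right had a mean of 160 FPKM in low and 0.580 FPKM in high ammonia but overlapping groups.

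The rule asks for complete separation, and this leaves out genes with a large but uneven difference. In 138 annotated genes of this level the low ammonia mean was at least 2 times the high ammonia mean. Of these, 41 were members, 61 had groups that lay apart by a gap under 1.5, and 36 had groups that overlapped. The most extreme of the overlapping genes, picked after its values were seen, had 198 bases of exon. It stood at 480.3 FPKM in low ammonia library 2 and at 0.857 and 0.306 FPKM in low ammonia libraries 1 and 3, against 0.986, 0.753 and 0 FPKM in high ammonia. One library alone carried the difference of that gene, which the gap rule keeps out of the set. Conversely, 12 members had means that differed by less than 2-fold and still met the gap of 1.5.

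Members were found at all levels of the window. There were 44 among 4189 genes averaging 10 to 100 FPKM (1.05%) and 9 among 773 genes averaging 100 to 1000 FPKM (1.16%). The same rule applied to newly assembled genes of this level picked 4 of 330 (1.21%). In the opposite direction, 58 annotated genes (1.17%) had a lowest high ammonia library at least 1.5 times their highest low ammonia library. The balance of the numbers depended on scaling, since with median-ratio factors 38 genes met the rule for lower genes and 93 the mirrored one. Without the 1.5-fold gap, all low ammonia libraries lay above all high ammonia libraries in 840 genes of this level (16.9%), and the reverse held in 411 (8.28%). Both numbers come from FPKM without median-ratio scaling, where the median log2 difference of the tested genes was -0.13, so nothing is read from their balance.

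The gene with the widest gap, ENSAPLG00000003647, has 330 bases of exon. It stood at 500.1, 130.3 and 247.5 FPKM in low ammonia libraries 1, 2 and 3, from 3892, 923 and 1349 counts. In high ammonia libraries 1, 2 and 3 it stood at 8.28, 15.4 and 11.1 FPKM, from 56, 68 and 61 counts. Its lowest low ammonia library was thus 8.48 times its highest high ammonia library, although low ammonia libraries differed among themselves by up to 3.84-fold. Its log2 difference was -4.37 (SE 0.46, n = 3 and 3). Every SE given here is the moderated one of limma, which borrows variance from all genes tested.

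The next, ENSAPLG00000012397, was also the most abundant member by mean FPKM and has 1104 bases of exon. Its low ammonia values were 568, 2876 and 985 FPKM and its high ammonia values 16.9, 98.7 and 35.8 FPKM. The gap was 5.75. Its highest library was 5.06 times its lowest in low ammonia and 5.85 times in high ammonia, the latter the widest high ammonia spread of any member. The log2 difference was -4.86 with the largest SE of the set, 0.74.

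Further members combined a wide gap with few counts in high ammonia. A gene of 384 bases stood at 11.7, 33.7 and 10.1 FPKM in low ammonia and at 1.91, 2.91 and 1.56 FPKM in high ammonia, where it rested on 15, 15 and 10 counts. A gene of 876 bases stood at 20.8, 51.8 and 5.32 FPKM in low ammonia and at 1.62, 0.766 and 1.71 FPKM in high ammonia. It was the least even member in low ammonia, with 9.74-fold between libraries 2 and 3. Its 9 counts in high ammonia library 2 were the fewest of any member in any library and allow 0.350 to 1.45 FPKM (95% exact Poisson interval, which covers counting error only). A gene of only 77 bases stood at 456, 247 and 119 FPKM in low ammonia and at 43.7, 16.5 and 34.3 FPKM in high ammonia, the last from 69, 17 and 44 counts. So short an exon length gives a high FPKM from few counts.

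Better supported by counts were 3 genes with gaps close to 3. The gene of 1203 bases stood at 114, 146 and 164 FPKM in low ammonia and at 25.7, 16.7 and 37.7 FPKM in high ammonia, with a log2 difference of -2.42 (SE 0.29). The gene of 3556 bases stood at 284, 436 and 300.1 FPKM in low ammonia and at 75.4, 87.8 and 99.7 FPKM in high ammonia, with at least 4189 counts in every library and a log2 difference of -1.93 (SE 0.21). The gene of 953 bases stood at 51.3, 68.5 and 68.9 FPKM in low ammonia and at 18.2, 13.5 and 15.7 FPKM in high ammonia, and its log2 difference was -1.92 (SE 0.19). In each of the 3 the groups lay far apart relative to the spread inside them, which their choice by gap favours. The gene of 1203 bases still varied 2.25-fold within high ammonia.

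Of the 2 members with 906 bases of exon, one had a gap of 2.65. It was nearly level in low ammonia, at 39.5, 35.8 and 38.1 FPKM, and varied in high ammonia, at 6.57, 13.5 and 11.1 FPKM. A gene of 1697 bases showed the opposite, with 41.7, 89.1 and 44.5 FPKM in low ammonia and 15.8, 14.4 and 13.7 FPKM in high ammonia. The uneven group was thus high ammonia in this 906-base gene and low ammonia in the 1697-base gene.

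**Figure D2:**
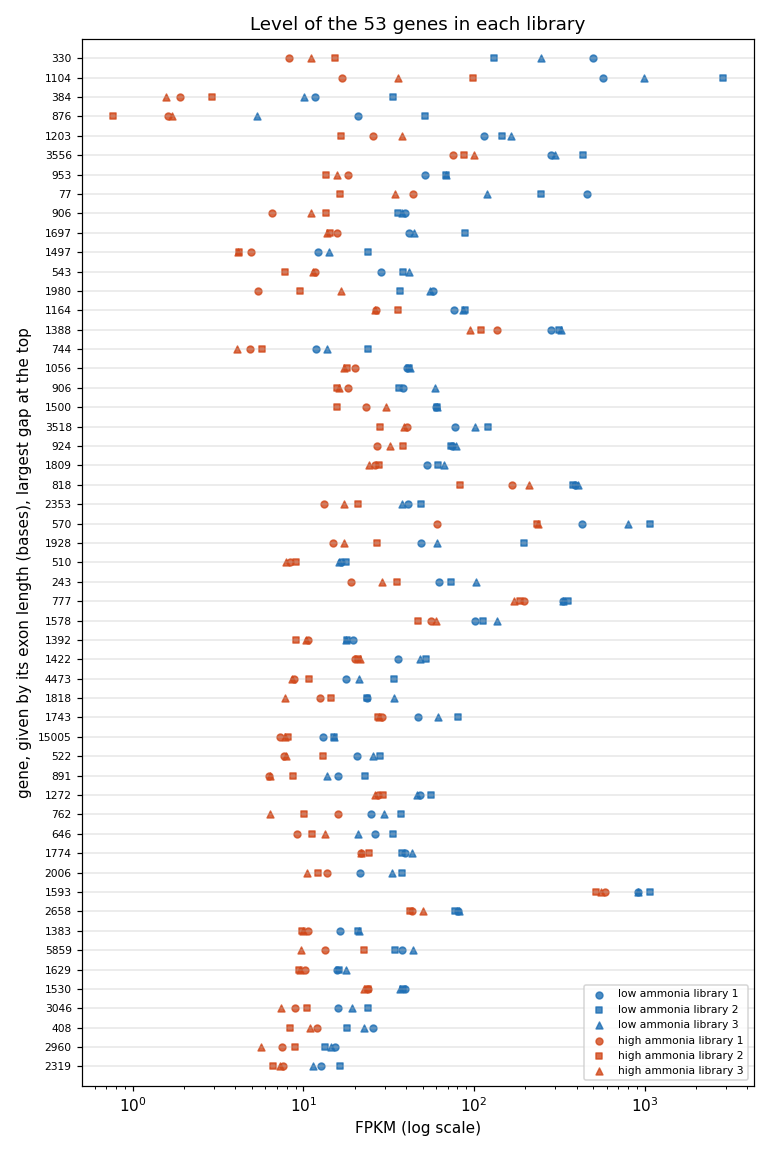
FPKM of each of the 53 genes (rows, given by exon length in bases and ordered from the widest gap at the top to the narrowest) in 3 low ammonia libraries (blue) and 3 high ammonia libraries (red), on a log scale. In every row the lowest blue point is at least 1.5 times the highest red point, as the rule requires; the gap shrinks from 8.48 in the top row to just over 1.5 in the bottom row.

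A few genes held most of the set's abundance. The 8 members with the highest mean carried 67.4% of the summed mean FPKM, which is not a share of the difference between groups. After the 1104-base gene came one of 1593 bases, at 908, 1068 and 916 FPKM in low ammonia and 585, 521 and 554 FPKM in high ammonia. Its means differed by only 1.74-fold, but both groups were even. A gene of 570 bases stood at 430.5, 1073 and 801 FPKM in low ammonia and at 60.8, 235 and 238 FPKM in high ammonia, where library 1 was the low one. Its SE of 0.57 on a log2 difference of -2.25 was among the larger ones.

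The gene of 818 bases was level in low ammonia, at 389.9, 383 and 407 FPKM, and uneven in high ammonia, at 167, 83.3 and 210.5 FPKM. The gene of 777 bases was level in both, at 333, 358 and 334 FPKM and at 195, 187 and 170.4 FPKM. The gene of 1388 bases stood at 283, 313 and 324 FPKM in low ammonia and at 136, 109 and 94.2 FPKM in high ammonia. The remaining genes of these 8, with 3556 and 77 bases, are those given above. Even and uneven genes thus both occurred among the most abundant members.

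The share of all FPKM held by the 53 genes was 0.685%, 1.02% and 0.691% in low ammonia libraries 1, 2 and 3 and 0.228%, 0.240% and 0.262% in high ammonia libraries 1, 2 and 3. As means these are 0.799% ± 0.193 and 0.243% ± 0.0171 (SD, n = 3). Low ammonia library 2 stood out mainly through 1 gene. The 1104-base gene made up 31.6% of the members' FPKM there, 9.71% and 15.4% in low ammonia libraries 1 and 3, and at most 4.69% in high ammonia. Without it the shares were 0.634% ± 0.0587 in low and 0.237% ± 0.0174 in high ammonia. Low ammonia library 2 was then still the highest, at 0.699% against 0.618% and 0.585% in libraries 1 and 3. By counts, which weigh long genes more, the 53 genes held 0.934% ± 0.236 in low and 0.313% ± 0.00718 in high ammonia. The mirrored set of 58 genes held 0.346% ± 0.0243 in low and 1.10% ± 0.0615 in high ammonia. All genes of this level together held 38.4% ± 1.76 and 39.2% ± 0.924.

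**Figure D3:**
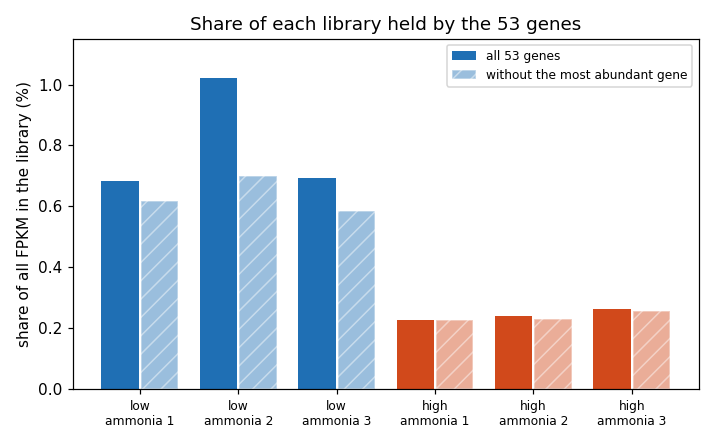
Share of all FPKM in each library (percent, y axis from 0) held by the 53 genes (solid bars) and by 52 of them without the most abundant gene (hatched bars), for 3 low ammonia libraries (blue) and 3 high ammonia libraries (red). Low ammonia library 2 reaches 1.02% with that gene and 0.699% without it; the high ammonia libraries lie between 0.228% and 0.262% and change little.

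Members differed widely in how even they were inside the groups. Within low ammonia the highest library was a median of 1.43 times the lowest (range 1.02 to 9.74), and within high ammonia 1.39 times (range 1.05 to 5.85). Over all genes of this level the medians were 1.399 and 1.28. The ratio exceeded 2 within low ammonia in 9 members (17.0%, against 12.9% of genes of this level) and within high ammonia in 10 (18.9%, against 8.0%), and 4 members exceeded it in both. The rule constrains the spread of a gene only through its gap, so these shares are descriptions of what it let through.

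At the even end, 13 members stayed within 1.3-fold in both groups (24.5%, against 23.3% of genes of this level). Their means differed by 1.62-fold to 2.33-fold, with a median of 1.85. The gene of 1530 bases, one of these, stood at 39.5, 38.2 and 36.7 FPKM in low ammonia and at 24.1, 24.0 and 22.8 FPKM in high ammonia. The gene of 1809 bases had the widest difference of the 13, with 60.7 ± 6.88 FPKM in low and 26.0 ± 1.81 FPKM in high ammonia (SD, n = 3). The longest member, with 15005 bases, was also among them, at 13.1, 15.1 and 15.1 FPKM and at 7.26, 8.13 and 7.80 FPKM. Differences near 2-fold or below made up this end of the set. The rule lets an even gene pass with a smaller difference than an uneven one, so nothing is read from this.

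At the uneven end, single libraries stood above their group. In 8 members low ammonia library 2 was at least 1.5 times each of the other 2 low ammonia libraries, as in the gene of 1928 bases, at 49.1, 197 and 60.8 FPKM. Low ammonia library 1 did so in 2 members, those of 330 and 77 bases, and low ammonia library 3 in 1. Among all genes of this level the shares were 5.68% for library 2, 1.27% for library 1 and 7.40% for library 3. In high ammonia the numbers were 1, 5 and 1 members for libraries 1, 2 and 3 (1.89%, 9.43% and 1.89%), against 1.77%, 4.15% and 1.05% of genes of this level. Counted without a minimum ratio, low ammonia library 2 was the highest of its group in 27 members (50.9%, against 49.5% of genes of this level), and low ammonia library 1 was the lowest in 30 (56.6%, against 47.1%).

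**Figure D4:**
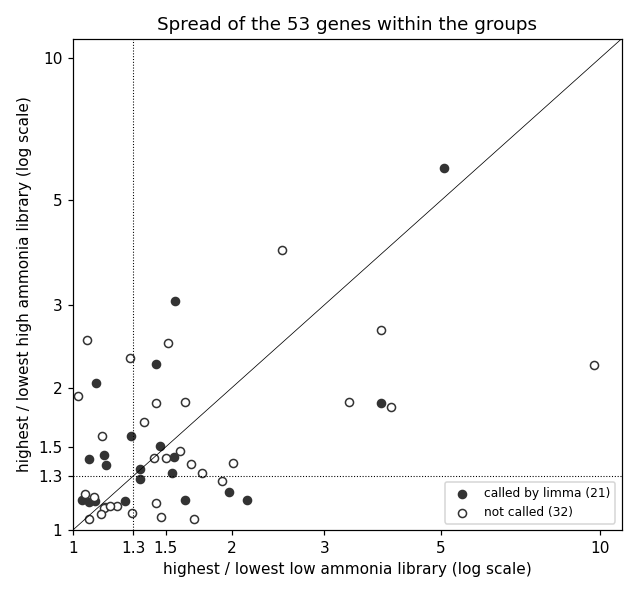
Highest over lowest library within high ammonia (y axis, log scale) against the same within low ammonia (x axis, log scale) for the 53 genes, with dotted lines at 1.3 and a line of equal spread. Filled points are the 21 genes called by limma and open points the 32 that were not; 13 genes lie inside both dotted lines and 4 exceed 2 on both axes.

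Inside the groups, the members covaried about as much as all genes of this level did. For each gene the deviations from its group means on the log2(FPKM + 1) scale were taken over the 6 libraries and correlated between genes, as a description over points that share libraries and depth. Over the 1378 pairs of members the Pearson correlation had a median of 0.131, with quartiles of -0.305 and 0.527. Over all pairs of the 4962 genes of this level the median was 0.123, with quartiles of -0.322 and 0.529. Correlations over 0.9 made up 2.98% of member pairs and 3.33% of all pairs. Some pairs kept a steady ratio over all 6 libraries. The genes of 1697 and 1497 bases, picked for this, had a ratio of 3.13 to 3.71 in all 6 libraries and a correlation of deviations of 0.987, both with the highest level in low ammonia library 2. The SD of the log2 ratio was 0.0866 for this pair, against a median of 0.506 over pairs of members. That SD spans both groups, so it also depends on how alike the low to high differences of the genes are. It is no measure of covariation inside the groups, and nothing is read from it.

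**Figure D5:**
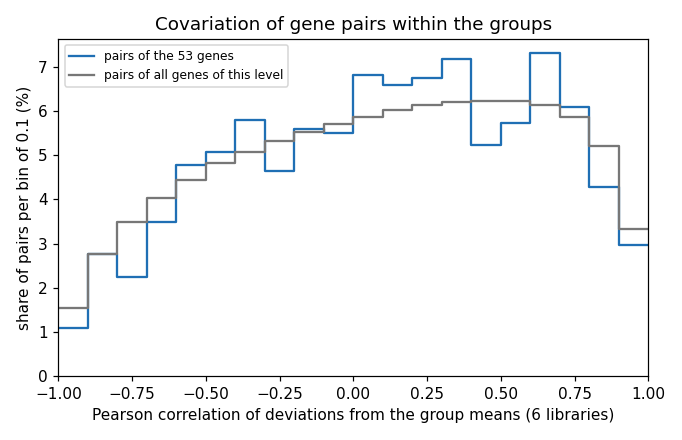
Distribution of the Pearson correlation of deviations from the group means (x axis, 6 libraries) as the share of gene pairs per bin of 0.1 (y axis, percent), for 1378 pairs of the 53 genes (blue) and all pairs of the 4962 annotated genes of this level (grey). The curves follow each other closely, with medians of 0.131 and 0.123.

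Genes whose profile over the 6 libraries was most like that of a leading member were not members. For ENSAPLG00000003647 the 3 most alike annotated genes of this level, by Pearson correlation of log2(FPKM + 1), had 1087, 4050 and 994 bases of exon and correlations of 0.998, 0.994 and 0.985. Their low and high ammonia means were 13.0 and 8.84, 24.5 and 13.9, and 27.97 and 20.3 FPKM, with gaps of 1.27, 1.37 and 1.19. For ENSAPLG00000012397 they had 3843, 507 and 6294 bases, correlations of 0.992, 0.990 and 0.990 and gaps of 1.12, 1.18 and 1.41. These genes were picked out of all genes of this level for that correlation. Their shared order of libraries is therefore the selection itself, and nothing is read from it. ENSAPLG00000003647 has the widest gap of this level and ENSAPLG00000012397 the largest log2 difference. Smaller values in the genes like them were thus fixed in advance.

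Exon length was not used by the rule. Members had a median of 1388 bases (quartiles 818 and 1818), against 1190 bases (quartiles 639 and 1921) over all genes of this level and 1103 bases in the mirrored set. Of the members, 20 (37.7%) were shorter than 1000 bases, against 42.1% of genes of this level, and 6 (11.3%) were longer than 3000 bases, against 9.15%. The 20 shorter members had a median gap of 1.87 and the 33 others one of 1.67. Counts behind the values were ample for most members. The lowest count over the 6 libraries had a median of 319, fell under 100 in 14 members and under 30 in 3.

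Near the threshold the choice was one of small differences. The 3 members just inside had gaps of 1.508, 1.506 and 1.503 and ratios of means of 2.12, 1.96 and 1.88. They have 408, 2960 and 2319 bases. The 3 genes just outside, of 2595, 2393 and 8674 bases, had gaps of 1.497, 1.490 and 1.485 and ratios of means of 1.63, 1.92 and 1.75. There were 17 members with a gap from 1.5 to under 1.6 and 41 genes of this level with one from 1.4 to under 1.5.

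A limma fit over all 11717 genes with at least 1 FPKM in 3 libraries was read beside the rule. At an adjusted p (Benjamini-Hochberg) below 0.05 it called 21 of the 53 members lower, and 44 of all genes (0.376%). Since fit and rule use the same libraries and the same contrast, nothing is read from the higher share. The called members included the genes of 953, 330, 3556, 1164 and 1203 bases. The gene of 1164 bases stood at 76.5, 88.6 and 85.9 FPKM in low ammonia and at 26.6, 36.0 and 26.2 FPKM in high ammonia, with a log2 difference of -1.48 (SE 0.18). The 32 members that limma did not call had log2 differences from -3.06 to -0.67. Among them were the genes of 384, 876, 77, 570, 1928 and 1593 bases. Fewer genes were called whenever any 1 library was left out, and why was not tested. When low ammonia library 1, 2 or 3 was left out, limma called 13, 6 and 3 members lower, of 28, 11 and 5 genes in all. When it was high ammonia library 1, 2 or 3, the numbers were 0, 6 and 1 members, of 3, 13 and 3 genes in all. The genes tested numbered 11520, 11487 and 11499 without a low ammonia library and 11585, 11513 and 11582 without a high ammonia library. In the limma fit that called 0 members, 1005 of 11585 genes were lower at an unadjusted p below 0.05, all 53 members among them. The members were chosen by the same contrast, so nothing is read from this either.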

How the data were processed

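Liver RNA was extracted with Trizol and made into libraries with an Illumina TruSeq kit, per the labels' protocols. The authors deposited FPKM values, 1 column per library, with aligner, counter, build and annotation not given in the sources used here. A second table deposited by the authors, with other values (exon starts and ends of newly assembled genes), served only to calibrate lengths. If the kit kept no strand, reads of overlapping genes on opposite strands could not be told apart. How such reads were counted is not known.

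Library totals came from the common step of FPKM times exon length in newly assembled genes with 1 transcript. A total is inversely proportional to that step. For each gene the shortest whole length that made all 6 counts whole (within 0.0001 plus 1e-07 of the count) was taken. In newly assembled genes with at least 10 counts in every library, this returned the mean transcript length in 99.3% and a divisor in 0.725%. A factor common to all counts of a gene thus stays unknown, and recovered counts summed to 99.5% to 99.6% of the totals.

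Groups were compared by limma 3.58.1 (R 4.3.3, variance trend, 2-sided) on log2(FPKM + 1). The added 1 shrinks the differences of low genes. The limma fit was run on simulated counts with known changes. These were drawn independently with 1 dispersion for all genes and no room effect. That served as a check of the code, and nothing is read from it about the calls. Python 3.11.15, numpy 2.4.6, pandas 2.3.3 and scipy 1.17.1 did the rest. Genes were named by gap (the top 10), mean FPKM (the top 8), nearness to the threshold (3 on each side), adjusted p (the top 5) and likeness (3 for each of 2 genes). Examples of even and uneven genes, the pair with a steady ratio and the gene of 198 bases were chosen after their values were seen. Members and lists were chosen with earlier results of these data known. The gene lists prepared for symbols could not be used, since the reference gene table holds no Ensembl identifiers to match.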

Additional observations from a re-analysis of the deposited data

How the results depend on the processing

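The number of genes meeting the rule was 53 as stated, 200 with a minimum gap halfway between 1 and 1.5 and 17 with a gap of 2, and 83 from a mean of 5 FPKM and 35 from 20 FPKM. It was 60 with no upper limit on FPKM and 38 with median-ratio scaling, of which 36 were among the 53. Leaving out 1 library eases the rule, and 69 to 157 genes then met it, the most without low ammonia library 1. Of the 53 genes, 48 to 53 remained. Leaving out a library cannot narrow the gap of a member, so those lost left only because their mean fell outside the FPKM window. Nothing is read from the number that remained. Limma called 44 of 11717 genes lower and 21 members, against 9 of 19528 and 5 when genes of every level were tested. At least 5 FPKM in 3 libraries gave 36 members of 63 genes called, out of 7776 tested. Voom on recovered counts gave 32 of 66, out of 11716 tested. Pseudocounts of 0.1 and 0.01 gave 21 of 41 and 20 of 39, median-ratio scaling 18 of 33 and limma without the trend 19 of 41. These fits tested 11717 genes, or 11711 with scaling. Without 1 library limma called 3 to 28 genes lower, out of 11487 to 11585 tested, and 0 to 13 members, from 5 libraries in place of 6. Nothing is read from the higher share among members, which the same contrast chose. Calls that were lower made up 47.8% of all calls, and 30.8% with median-ratio scaling.

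The members' median log2 difference was -1.28, and -1.14 with median-ratio scaling, with -1.39 to -1.21 without 1 library. Their share of recovered counts in high ammonia was 0.313%, against 0.243% of FPKM. Without 1 library the shares of FPKM were 0.688% to 0.857% in low and 0.234% to 0.251% in high ammonia. Of 247 values of 19 named genes in the 13 other limma and voom fits, 48 lost the call and 6 gained it. Only genes called in the main fit could lose the call, and only the others could gain it. Neither number is therefore a share of the 247 values. The direction of the members is fixed by their choice and was not counted. Why these numbers moved was not tested. No paired analysis was run because the labels give no pairs between the groups. Just 1 number in the sample titles occurs in both groups, and its meaning is not given. Depth limits most the 3 members with under 30 counts in a library.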
